A study of Mus musculus with 9 samples.

Results

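The constitutive proteasome subunits and their regulators were described across 9 mouse brain libraries. The members are the protein-coding genes whose symbols begin with Psma, Psmb, Psmc, Psmd, Psme, Psmf or Psmg followed by a digit, without the inducible immunoproteasome genes Psmb8, Psmb9 and Psmb10. The rule uses symbols and no measured value. It took 48 of the 56748 genes in the count table, and 46 of them were among the 17575 genes that passed the count filter and were tested. Bulk RNA was sequenced from brain tissue without cerebellum of mice aged 7 months, in 3 genotypes with 3 libraries each, and each library is labelled as 1 mouse. The 5xFAD/Cd5l tg/wt mice carry the 5xFAD transgenes and, in addition, a transgene that forces expression of mouse Cd5l from the human PDGF-B promoter, and are also called Cd5l transgenic here. The 5xFAD mice carry the amyloid transgenes alone, which in this line are mutant human genes driven by the neuronal Thy1 promoter. The wild-type mice carry neither. No genotype carries the Cd5l transgene on a wild-type background, so a difference between 5xFAD/Cd5l tg/wt and 5xFAD brains is known here only in the presence of the amyloid transgenes. The sex of the mice is not labelled.

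The proteasome degrades proteins that carry ubiquitin chains. Its barrel-shaped core particle is built of outer alpha rings, which gate the entrance, and inner beta rings, which hold the proteolytic sites, and a regulatory particle binds, unfolds and feeds in the substrate. Subunit genes are expressed in every cell type, and in mammalian cells the transcription factor Nfe2l1 raises many of them together when proteasome activity is blocked. Interferon replaces the catalytic beta subunits with inducible counterparts, and proteasome function is studied in brains with protein aggregates because it clears misfolded proteins.

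The libraries held 14575416 to 17865150 counts. Cd5l, the transgene product, was counted 2553 to 3551 times per library in 5xFAD/Cd5l tg/wt mice, 0 times in each 5xFAD library and 0 to 1 times per library in wild-type mice, as the labels state. Neuronal marker genes were high in every library, with a summed level of 7676 to 8455 counts per 1e6 of the TMM-scaled library (CPM). Single genes of this list were less even. Slc17a6 had 30.7 and 46.9 CPM in 5xFAD/Cd5l tg/wt libraries 2 and 3, against 78.8 to 134.6 CPM in the others. Gad2 had 195.7 and 194.0 CPM there, against 291.8 to 330.3 CPM. For 5xFAD/Cd5l tg/wt against 5xFAD, 5 of the 10 markers had log2 fold changes below 0. In edgeR 5 had an unadjusted p under 0.05 (22.3% of tested genes) and none passed after adjustment, and DESeq2 called Gad2. Some libraries stood apart by regional or cell-type markers. Cerebellar markers summed to 1067 CPM in wild-type library 3 and 217 to 313 CPM in the others, although the cerebellum was removed. In wild-type library 1 Cbln3, Fat2, Pcp2 and Gabra6 had 18.5, 9.01, 7.15 and 4.88 CPM. Outside these 2 libraries they reached at most 4.83, 2.86, 2.92 and 2.69 CPM. Calb1 and Zic1 of the same list did not stand out in library 1, at 130.5 and 53.2 CPM. Striatal markers were lowest in the first 5xFAD/Cd5l tg/wt library, at 444 CPM in sum, and in wild-type library 3, at 504 CPM, against 669 to 913 CPM elsewhere. Oligodendrocyte markers were lowest in the second 5xFAD/Cd5l tg/wt library, with a sum of 4775 CPM, against 6547 CPM or more in each of the others. Nuclear RNAs such as Malat1 and Neat1 summed to 3030 to 4759 CPM in 5xFAD/Cd5l tg/wt libraries, 1035 to 1275 CPM in 5xFAD libraries and 2647 to 3714 CPM in wild-type libraries. Ribosomal RNA took 0.0661% to 0.121% of counts in 5xFAD/Cd5l tg/wt, 0.184% to 0.265% in 5xFAD and 0.0584% to 0.255% in wild-type libraries. Its part in the differences below was not tested. Every adjusted p is from edgeR's quasi-likelihood test with Benjamini-Hochberg adjustment over the 17575 tested genes, and log2 fold changes are given ± SE from a fit of 3 libraries per genotype.

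The subunits of the assembled particle were mostly expressed at higher levels per gene length than the factors that assemble or cap it. As a mean over the 9 libraries, in CPM per kb of gene length, the 7 alpha subunits spanned 16.3 to 60.5 and the 7 beta subunits 20.5 to 72.1. The 6 ATPases that form the unfolding ring of the regulatory particle spanned 18.6 to 109.6, and its 11 non-ATPase subunits 8.96 to 56.8. The highest member was Psmc5, an ATPase, at 109.6 CPM per kb with a range of 95.4 to 121.6 over the libraries, which did not meet the range of the next member, Psmc1, at 65.6 to 80.0. Psmc1 and the catalytic subunit Psmb5, at 64.3 to 80.5 CPM per kb, overlapped almost entirely. The core assembly chaperones Psmg1 to Psmg4 spanned 1.59 to 8.92 CPM per kb and the base assembly chaperones Psmd5, Psmd9 and Psmd10 spanned 3.77 to 10.1. This order depends on the deposited length, which is 7230 bases for Psmd5. Without that division its genotype means were 51.1 to 55.4 CPM, above those of Psmb2 (35.7 to 37.3) and Psmb3 (45.3 to 48.1). Psmd9 (24.9 to 29.1) and Psmd10 (13.9 to 16.3) stayed below both. Among the activators, Psme3 had 35.8 CPM per kb and Psme4 6.20, and the inhibitor Psmf1 had 5.23. The lowest tested member was Psmc3ip, at 1.29 CPM per kb, a gene that the rule takes by its symbol but that encodes a partner of meiotic recombination proteins and no proteasome subunit.

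**Figure D1:**
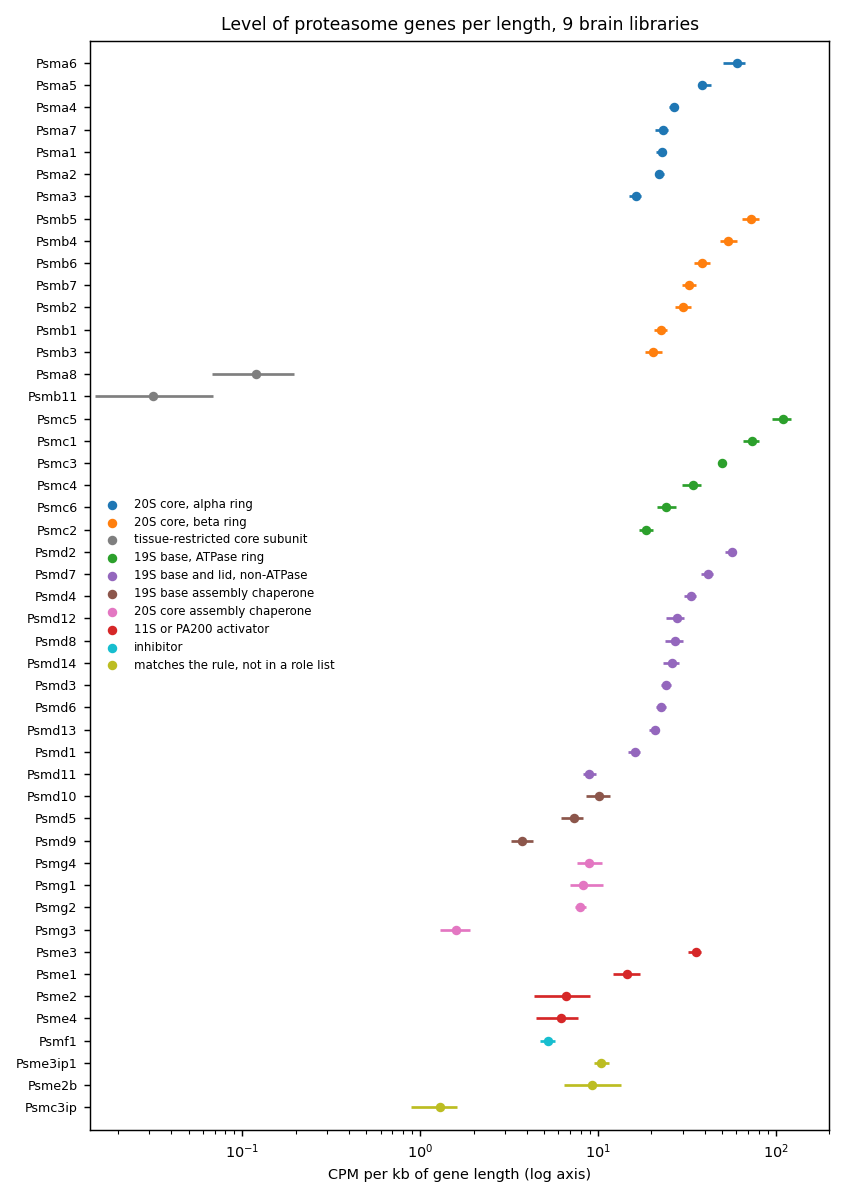
Level of each of the 48 members in CPM per kb of gene length on a log axis, with the mean over 9 libraries as a point and the range over libraries as a line, coloured by role. Core and regulatory particle subunits lie between 8.96 and 109.6, the chaperones at 10.1 or lower, and Psma8 and Psmb11 far below, and the line of Psmb11 is drawn from the axis edge because 1 library had no count.

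Members that did not pass the filter were those of other tissues. Psma8, the alpha subunit of the testis proteasome, had 3 to 8 counts per library. Psmb11, the catalytic subunit of the thymus proteasome, had 0 to 5 counts, and the count of 0 in 5xFAD library 3 allows a level of up to 0.201 CPM, counting error only. The tested members had a median level of 68.8 CPM, against 17.03 CPM over all tested genes, and a median deposited gene length of 2804 bases, against 4017. Within genotypes their coefficient of variation ran from 2.49% to 24.6% with a median of 5.86%, and it was lowest for Psmc2 and highest for Psme2b. Psme2b is a close copy of Psme2, and how reads matching more than 1 gene were treated is not given in the sources used here, so counts of that pair are uncertain. The same holds for Psma5 and its pseudogene Psma5-ps. The use of strand is not given either, so reads of a member and of a gene model that overlaps it cannot be told apart. 22 of the 48 members overlap another model, and for 8 of them, Psmb7, Psme1 and Psmc3ip among them, the overlapping models held at least 10% of the member's counts. Over the 9 libraries the overlapping models held 3027 counts against 336 for Psmc3ip, 2924 against 4632 for Psme1 and 5322 against 15874 for Psmb7.

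The promoters of 4 members that recur below are shown because those of Psme4, Psmb5 and Psmb6 hold the element bound by Nfe2l1 and those of Psme4 and Psma6 the ETS motif that was commoner among the members. They come from RefSeq on the older build GRCm38.p6, whereas the count table uses GRCm39, and run from 250 bases before the transcription start to 20 bases after it, in the direction of transcription. Capitals mark the antioxidant response element TGACNNNGC, the sequence that Nfe2l1 binds, and the ETS motif CCGGAAG, both searched on either strand. Psme4 lies at chr11:30771525-30771794 on the forward strand, Psma6 at chr12:55398575-55398844 on the forward strand, Psmb5 at chr14:54617976-54618245 on the reverse strand and Psmb6 at chr11:70525107-70525376 on the forward strand.
Psme4: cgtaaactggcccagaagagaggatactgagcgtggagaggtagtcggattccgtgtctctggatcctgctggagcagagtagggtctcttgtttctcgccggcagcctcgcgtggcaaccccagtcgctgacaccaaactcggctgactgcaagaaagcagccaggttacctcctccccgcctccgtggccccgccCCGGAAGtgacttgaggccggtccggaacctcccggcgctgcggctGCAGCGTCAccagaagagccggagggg
Psma6: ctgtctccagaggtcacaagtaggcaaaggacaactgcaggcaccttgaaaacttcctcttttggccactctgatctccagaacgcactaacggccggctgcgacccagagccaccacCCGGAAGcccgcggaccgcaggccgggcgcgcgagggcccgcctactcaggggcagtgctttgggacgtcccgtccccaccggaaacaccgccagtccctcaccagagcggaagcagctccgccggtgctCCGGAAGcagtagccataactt
Psmb5: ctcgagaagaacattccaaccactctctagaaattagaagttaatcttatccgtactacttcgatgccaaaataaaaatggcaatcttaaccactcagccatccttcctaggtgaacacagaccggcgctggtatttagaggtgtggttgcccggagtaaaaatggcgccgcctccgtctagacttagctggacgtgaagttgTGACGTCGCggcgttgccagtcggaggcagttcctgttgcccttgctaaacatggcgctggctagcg
Psmb6: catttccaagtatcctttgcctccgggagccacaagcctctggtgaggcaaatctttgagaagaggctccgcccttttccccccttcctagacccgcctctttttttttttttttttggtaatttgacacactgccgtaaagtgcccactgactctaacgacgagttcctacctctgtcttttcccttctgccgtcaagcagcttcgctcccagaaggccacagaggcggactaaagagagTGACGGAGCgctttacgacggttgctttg
The antioxidant response element begins 7 bases before the start in Psme4 (reverse strand), 47 bases before it in Psmb5 and 9 bases before it in Psmb6. The first CCGGAAG begins 53 bases before the start in Psme4 and 132 bases before it in Psma6, where a second begins 2 bases before it. The Psma6 promoter was chosen after its expression values were seen, and RefSeq lists another Psma6 start without the motif.

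A promoter of 300 bases was available for 40 of the 48 members. The antioxidant response element was found in 6 of them (15%, exact Clopper-Pearson 95% interval 5.71% to 29.8%), which is no higher than the 16.6% of 12365 tested genes with a promoter. A looser form, TGANNNNGC, was in 57.5% of the members' promoters and 47.6% of those of tested genes. CCGGAAG was found in 16 of 40 members (40%, interval 24.9% to 56.7%), against 17.4% of tested genes and 9.93% of all 27025 genes with a promoter. The median GC content was 58.2% for the members' promoters and 52.7% for all promoters, whether or not the gene was tested. It was not computed for tested genes alone, and its part in the CCGGAAG difference was not tested. The NF-Y box CCAAT was in 37.5% of members and 42.5% of tested genes, and the TATA box TATAAA in 7.5% and 9.13%. These matches are descriptions of letters and not binding sites.

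The members lie on 16 chromosomes, with 10 on chromosome 11. Of these genes only 2 pairs lie within 100 kb of each other, both on chromosome 14. Psmb5 (14:54851576-54855479, GRCm39) is 3411 bases from the barely detected Psmb11, and Psme1 (14:55815580-55818986) is 5912 bases from Psme2 (14:55824898-55828570), its partner in the same activator ring.

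The combined level of the members was lowest in the 5xFAD/Cd5l tg/wt brains, by a few percent. Summed over all 48 members it was 3086, 3050 and 3063 CPM in the 5xFAD/Cd5l tg/wt libraries, 3363, 3289 and 3160 CPM in the 5xFAD libraries, and 3133, 3276 and 3207 CPM in the wild-type libraries. Each 5xFAD/Cd5l tg/wt library lay below every other library, and the 5xFAD and wild-type libraries overlapped. The means were 3066 ± 18.3 CPM in 5xFAD/Cd5l tg/wt libraries, 3271 ± 103 CPM in 5xFAD and 3206 ± 71.6 CPM in wild-type libraries (SD, n = 3 each). The mean of 5xFAD/Cd5l tg/wt libraries differed by -6.25% from that of 5xFAD and by -4.34% from that of wild-type libraries, and the 5xFAD mean by 2.03% from the wild-type one. The first of these ran from -7.99% to -5.01% when single libraries of the 2 genotypes were left out. The members made up 0.301% to 0.309% of all counts in 5xFAD/Cd5l tg/wt libraries, 0.316% to 0.333% in 5xFAD and 0.318% to 0.327% in wild-type libraries. Oligodendrocyte markers also had lower values in 5xFAD/Cd5l tg/wt brains, with 7 of 7 genes below 0 against 5xFAD (median log2 fold change -0.18) and 7 of 7 below 0 against wild-type (median -0.31). None of the 7 passed the adjusted threshold in edgeR. At its unadjusted p under 0.05, 3 of 7 were lower against 5xFAD (8.01% of tested genes) and 6 of 7 against wild-type (5.58%). DESeq2 called none against 5xFAD and Mbp against wild-type. Their summed level was 4775 to 7136 CPM in 5xFAD/Cd5l tg/wt, 6774 to 7635 CPM in 5xFAD and 7507 to 8413 CPM in wild-type libraries, and their part in the members' level was not tested. Of the 10 neuronal markers, 5 were below 0 against 5xFAD (median -0.03) and 7 against wild-type (median -0.06). The part of neuronal markers in the members' level was not tested either. In whole brain tissue, fewer cells of a type and less RNA per cell cannot be told apart.

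**Figure D2:**
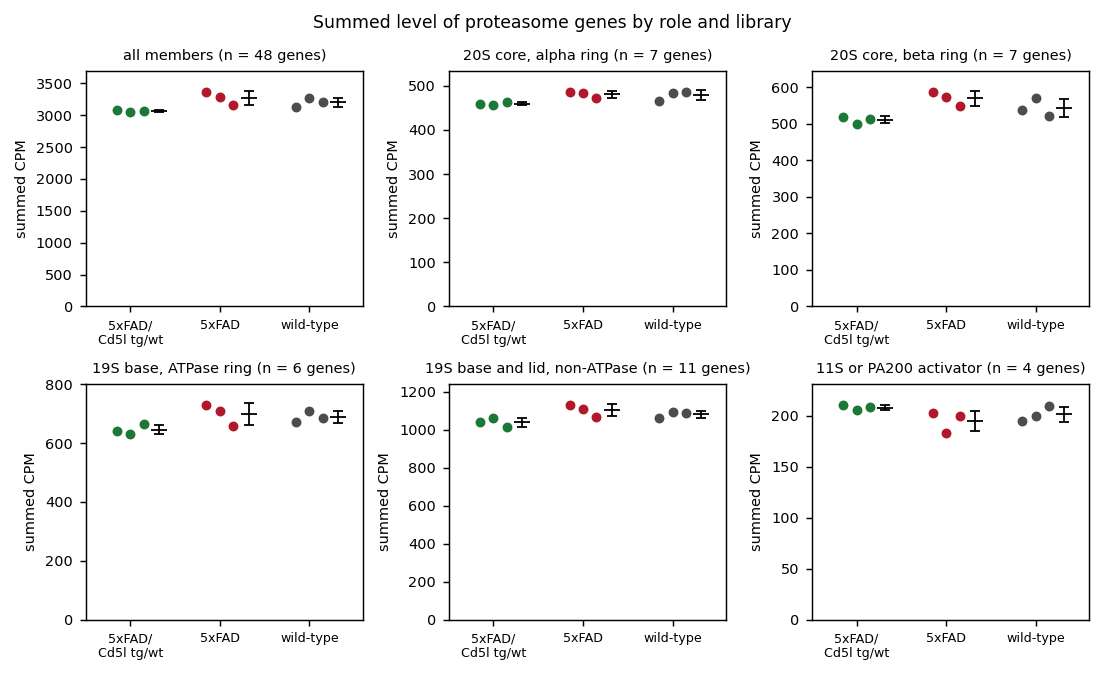
Summed CPM per library for all members and for 5 role groups, with points for single libraries and a bar for mean ± SD (n = 3), in the order 5xFAD/Cd5l tg/wt, 5xFAD and wild-type, on axes that start at 0. The beta ring shows the widest gap of the 4 particle groups, with 499.9 to 519 CPM in the Cd5l transgenic libraries, against 548 to 586 CPM in 5xFAD.

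The addition of the Cd5l transgene to the amyloid model was addressed by 5xFAD/Cd5l tg/wt against 5xFAD. Psme4, the nuclear proteasome activator that binds the core without ATP, was higher, and Psma6, an alpha ring subunit, was lower. These were 2 of 46 tested members at an adjusted p under 0.05, against 6.23% of all tested genes, so the members were called no more often than genes at large. By direction it was 1 of 46 higher, against 5.34% of tested genes, and 1 of 46 lower, against 0.888%. Without that threshold most members lay on 1 side. The log2 fold change was below 0 for 38 of 46 members (82.6%, against 49.0% of tested genes) and above 0 for 8 (17.4%, against 51.0%), and its median was -0.10, against 0.01. At an unadjusted p under 0.05, 12 members were lower (26.1%, against 8.01% of tested genes) and 1 was higher (2.17%, against 14.3%), 13 in all (28.3%, against 22.3%). The libraries did not overlap for 10 members in the lower direction (21.7%, against 12.1%) and 2 in the higher direction (4.35%, against 16.6%). Leaving out single 5xFAD libraries changed the count of 12 to 3 (library 1, with 4.99% of tested genes lower), 4 (library 2, with 4.78%) and 17 (library 3, with 7.5%), and leaving out the second 5xFAD/Cd5l tg/wt library changed it to 4 (with 5.75%). A further fit left out 3 libraries together. These were 5xFAD/Cd5l tg/wt libraries 2 and 3, which had the highest nuclear RNA sums at 4670 and 4759 CPM, and wild-type library 3. The last had the highest cerebellar marker sum, and wild-type library 1, which also held some of these markers, was kept. In that fit 5xFAD/Cd5l tg/wt is 1 library, the one with low striatal markers, and it is assumed to vary like the other genotypes. Its count of lower members is therefore not given. The count was 9 (with 10.2% of tested genes) when the dependence of each library on gene length was taken out by offsets. The calls of Psma6 and Psme4 rested on single libraries, as given with each gene below.

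The amyloid transgenes alone, 5xFAD against wild-type, gave no member past the threshold among 46, where 3.50% of tested genes passed (1.06% higher and 2.44% lower). By the unadjusted p 3 members were under 0.05 (6.52%, against 16.3%), namely Psme4 with the lower level (10.7% of tested genes in that direction) and Psme1 and Psmg1 with the higher one (5.56%). DESeq2 called 1 member, Psme4, at an adjusted p of 0.0211, and without 5xFAD/Cd5l tg/wt library 1 edgeR called it too, at 0.0184. The median log2 fold change was 0.04, against -0.01 over all tested genes, with 36 of 46 members above 0 (78.3%, against 47.8%) and 10 under 0 (21.7%, against 52.2%). The libraries did not overlap for 4 members in the higher direction, against 10.4% of tested genes, and for 2 in the lower direction, against 13.9%. The 95% interval of the fold change lay within 1.5-fold for 41 members and within 2-fold for all 46 tested ones.

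Between 5xFAD/Cd5l tg/wt and wild-type brains, which differ in every transgene, no member passed the threshold either, against 1.58% of tested genes (1.38% higher and 0.199% lower), and DESeq2 called none. An unadjusted p under 0.05 was reached by 4 members (8.70%, against 12.4%), with Psme1 higher (6.81% of tested genes in that direction) and Psmc2, Psma6 and Psmc5 lower (5.58%). The median log2 fold change was -0.06, against 0.00, with 33 of 46 members below 0 (71.7%, against 49.8%) and 13 above 0 (28.3%, against 50.2%). The libraries did not overlap for 7 members in the lower direction (15.2%, against 6.53%) and 1 in the higher direction (2.17%, against 7.93%). The 95% interval lay within 1.5-fold for 44 members. The 3 comparisons share libraries, so their counts are not independent of each other.

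**Figure D3:**
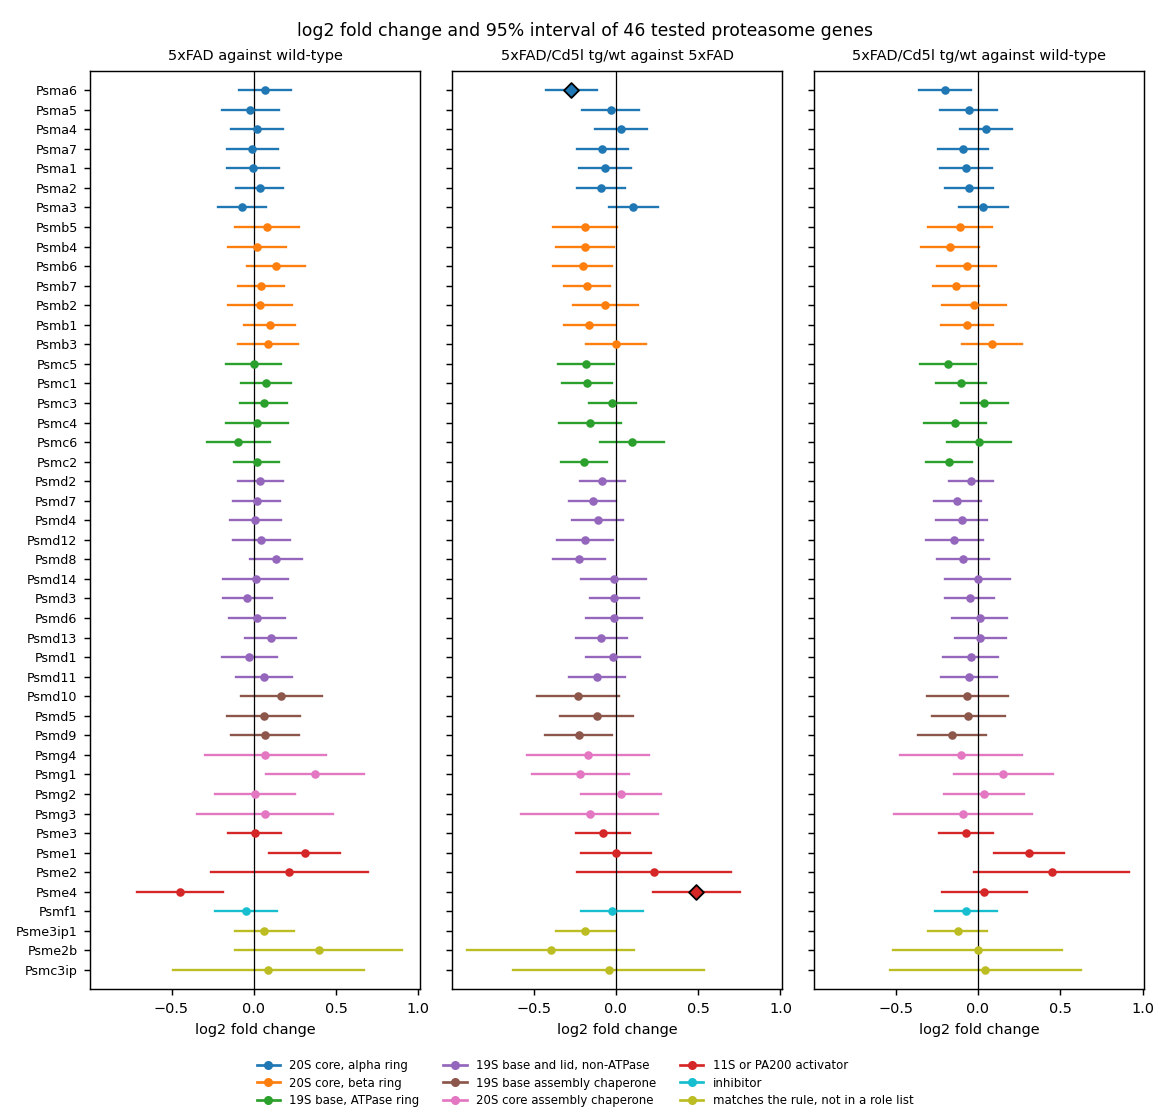
log2 fold change (x axis) and 95% interval of the 46 tested members, coloured by role, in 3 panels: left, 5xFAD against wild-type; middle, 5xFAD/Cd5l tg/wt against 5xFAD; right, Cd5l transgenic against wild-type. Diamonds with a black outline mark members past an adjusted p of 0.05, which are Psma6 at -0.27 and Psme4 at 0.49 in the middle panel; most beta, ATPase and non-ATPase subunits in that panel lie left of 0.

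In the alpha ring, which closes the core until a regulator docks, Psma6 was the member that changed. Psma6 (chromosome 12, 55431007 to 55465239, GRCm39) had 62.0, 70.2 and 68.1 CPM in 5xFAD/Cd5l tg/wt libraries, 81.0, 78.1 and 82.5 CPM in 5xFAD libraries, and 75.8, 74.4 and 79.9 CPM in wild-type libraries. The 5xFAD/Cd5l tg/wt libraries lay below all others, and the 5xFAD and wild-type libraries overlapped. Against 5xFAD the log2 fold change was -0.27 ± 0.07 (adjusted p = 0.0471, edgeR's quasi-likelihood test), a ratio of 0.829, and against wild-type it was -0.20 ± 0.07 (adjusted p = 0.267). The call was close to the threshold. It was kept without wild-type library 3 (adjusted p = 0.0379), and the adjusted p was 0.0521 to 0.158 when any other single library was left out, with log2 fold changes of -0.31 to -0.22. With length offsets the log2 fold change was -0.20 (adjusted p = 0.182), and with wild-type libraries kept out of the model the adjusted p was 0.0567. The median over the 7 alpha subunits was -0.06 against 5xFAD, with 5 below 0. Psma3 ran the other way, with 64.1, 64.7 and 67.9 CPM in 5xFAD/Cd5l tg/wt libraries against 61.9, 62.2 and 58.5 CPM in 5xFAD libraries, which did not overlap and did not pass the test (log2 fold change 0.11 ± 0.07, adjusted p = 0.385).

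The beta ring carries the proteolytic sites, and no subunit of it passed the test in any comparison. Its summed level was 519, 499.9 and 512 CPM in 5xFAD/Cd5l tg/wt libraries, 586, 573 and 548 CPM in 5xFAD and 537, 569 and 521 CPM in wild-type libraries. The 5xFAD/Cd5l tg/wt libraries lay below all others, with a difference in means of -10.3% against 5xFAD and -5.91% against wild-type. The 5xFAD and wild-type libraries overlapped, with a difference of 4.88%. The median log2 fold change of the 7 beta subunits was -0.18 for 5xFAD/Cd5l tg/wt against 5xFAD with 6 below 0, and 0.08 for 5xFAD against wild-type with all 7 above 0.

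Each of the 3 catalytic subunits had its lowest mean in the 5xFAD/Cd5l tg/wt brains. Psmb5, which cleaves after hydrophobic residues, had 59.8, 57.8 and 63.9 CPM in 5xFAD/Cd5l tg/wt libraries, 71.2, 72.3 and 62.8 CPM in 5xFAD and 67.3, 70.3 and 57.9 CPM in wild-type libraries. Its genotypes overlapped, with log2 fold changes of -0.19 ± 0.09 against 5xFAD (adjusted p = 0.247) and 0.08 ± 0.09 for 5xFAD against wild-type (adjusted p = 0.739). Psmb6, which cleaves after acidic residues, had 70.4, 68.0 and 65.2 CPM in 5xFAD/Cd5l tg/wt libraries, 80.3, 79.4 and 74.5 CPM in 5xFAD and 69.0, 79.0 and 65.2 CPM in wild-type libraries. Here the 5xFAD/Cd5l tg/wt libraries lay below the 5xFAD ones and within the wild-type range (-0.20 ± 0.08 against 5xFAD, adjusted p = 0.169). Psmb7, which cleaves after basic residues, had 101, 105 and 103 CPM in 5xFAD/Cd5l tg/wt libraries, 121, 112 and 115 CPM in 5xFAD and 115, 114 and 109 CPM in wild-type libraries. For Psmb7 the 5xFAD/Cd5l tg/wt libraries lay below both other genotypes (-0.18 ± 0.06 against 5xFAD, adjusted p = 0.132). Psmb3, a structural subunit, had a log2 fold change of 0.00 against 5xFAD.

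The ATPase ring unfolds substrates and opens the core gate. Its summed level was 645.9 ± 16.4 CPM in 5xFAD/Cd5l tg/wt libraries, 698.7 ± 36.2 CPM in 5xFAD and 689.3 ± 19.96 CPM in wild-type libraries (SD, n = 3 each). Psmc2 had the tightest values of all tested members. It had 85.8, 86.3 and 85.3 CPM in 5xFAD/Cd5l tg/wt libraries, 103, 95.5 and 96.6 CPM in 5xFAD and 96.3, 98.3 and 96.5 CPM in wild-type libraries. The 5xFAD/Cd5l tg/wt libraries lay below every other library, but the test was not passed against 5xFAD (-0.20 ± 0.06, adjusted p = 0.0931) or wild-type (-0.18 ± 0.06, adjusted p = 0.259). Psmc5 had 148, 133 and 139.9 CPM in 5xFAD/Cd5l tg/wt libraries, 169, 166 and 142 CPM in 5xFAD and 156, 161 and 160.1 CPM in wild-type libraries. The 5xFAD/Cd5l tg/wt libraries lay below the wild-type ones and overlapped the 5xFAD ones (-0.18 ± 0.08 against each, adjusted p = 0.193 against 5xFAD and 0.363 against wild-type). Psmc6 was the 1 ATPase of 6 above 0 against 5xFAD (log2 fold change 0.10 ± 0.09, adjusted p = 0.545).

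The 11 non-ATPase subunits recognise ubiquitin chains, remove them and scaffold the particle. All 11 had log2 fold changes below 0 for 5xFAD/Cd5l tg/wt against 5xFAD, from -0.22 to -0.01 with a median of -0.09, and none passed the test. Psmd8, a subunit of the lid, had the smallest p among them. Its level was 73.2, 75.8 and 80.6 CPM in 5xFAD/Cd5l tg/wt libraries, 92.2, 86.8 and 89.2 CPM in 5xFAD and 78.3, 86.8 and 79.1 CPM in wild-type libraries. The 5xFAD/Cd5l tg/wt libraries lay below the 5xFAD ones and overlapped the wild-type ones (-0.22 ± 0.07 against 5xFAD, adjusted p = 0.0902). Psmd14, the deubiquitinase of the lid, had -0.01 ± 0.09, and the ubiquitin receptor Psmd4 had -0.11 ± 0.07. The scaffold subunits Psmd1 and Psmd2, which hold ubiquitin-binding proteins, had -0.02 ± 0.08 and -0.08 ± 0.06.

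**Figure D4:**
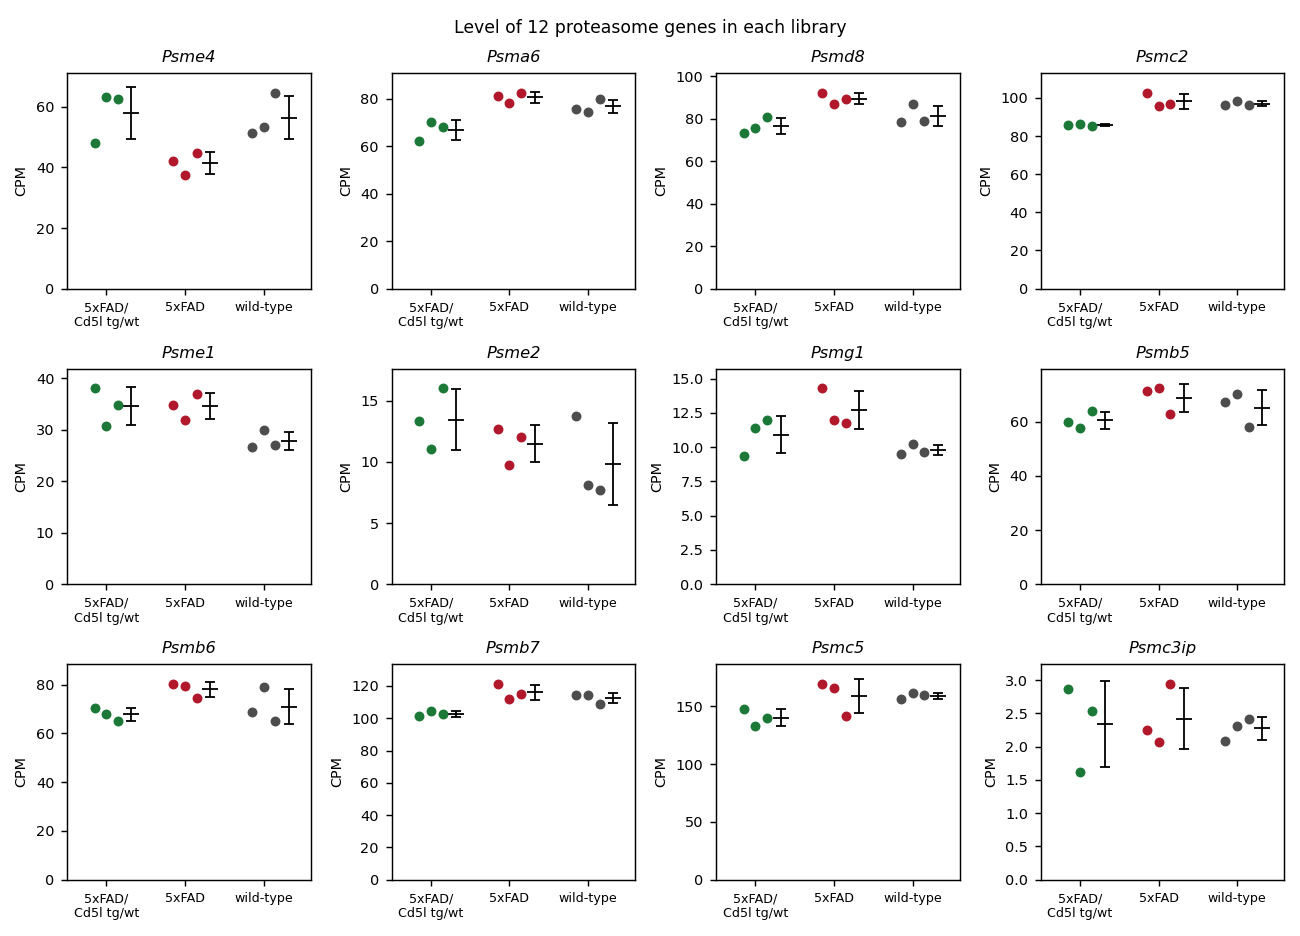
CPM of 12 members in each library (points) with mean ± SD (n = 3), ordered 5xFAD/Cd5l tg/wt, 5xFAD and wild-type, each panel on its own axis from 0. Psme4 is lowest in 5xFAD at 37.4 to 44.6 CPM, Psma6 and Psmc2 are lowest in 5xFAD/Cd5l tg/wt, and Psme1 is lowest in wild-type at 26.7 to 29.9 CPM.

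Assembly factors were low per gene length, and none passed the test. Psmg1, which with Psmg2 guides alpha ring assembly, had 9.39, 11.4 and 11.96 CPM in 5xFAD/Cd5l tg/wt libraries, 14.3, 12.01 and 11.8 CPM in 5xFAD and 9.53, 10.2 and 9.68 CPM in wild-type libraries. All 5xFAD libraries lay above the wild-type ones (log2 fold change 0.37 ± 0.14, adjusted p = 0.189), and the 5xFAD/Cd5l tg/wt libraries overlapped both. Psmg2, its partner, had 0.01 ± 0.11 in the same comparison. The base chaperone Psmd10 had 12.7, 13.6 and 15.5 CPM in 5xFAD/Cd5l tg/wt libraries, 17.1, 16.7 and 15.1 CPM in 5xFAD and 14.999, 14.3 and 14.2 CPM in wild-type libraries. The 5xFAD libraries lay above the wild-type ones and overlapped the 5xFAD/Cd5l tg/wt ones, and no comparison passed the test (0.17 ± 0.11 against wild-type, adjusted p = 0.527).

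The activators, which dock on the core in place of the regulatory particle, held the largest differences among the members with a role. Psme4 (chromosome 11, 30721726 to 30830361, GRCm39) had 48.1, 63.3 and 62.5 CPM in 5xFAD/Cd5l tg/wt libraries, 42.2, 37.4 and 44.6 CPM in 5xFAD and 51.3, 53.4 and 64.7 CPM in wild-type libraries. The 5xFAD libraries lay below all others, and the 5xFAD/Cd5l tg/wt and wild-type libraries overlapped. Psme4 was 1.40-fold higher in 5xFAD/Cd5l tg/wt than in 5xFAD brains (log2 fold change 0.49 ± 0.12, adjusted p = 0.0341). It had -0.45 ± 0.12 in 5xFAD against wild-type (adjusted p = 0.0692) and 0.04 ± 0.12 between Cd5l transgenic and wild-type brains (adjusted p = 0.935). The call against 5xFAD was lost without wild-type library 2, without any 1 of the 5xFAD libraries and without the second or the third 5xFAD/Cd5l tg/wt library, with log2 fold changes of 0.42 to 0.54 and adjusted p of 0.0503 to 0.169. In the fit without 3 libraries, where 5xFAD/Cd5l tg/wt is library 1 alone, the lowest of its genotype for Psme4, it was 0.20 (adjusted p = 0.316), and that of 5xFAD against wild-type, with 3 and 2 libraries, was -0.33 (adjusted p = 0.0354).

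Other measures were, like Psme4, lowest in the 5xFAD libraries. The nuclear RNA list was higher in 5xFAD/Cd5l tg/wt than in 5xFAD libraries in 5 of 5 genes past the threshold (5.34% of tested genes). It was lower in 5xFAD than in wild-type libraries in 5 of 5 (2.44% of tested genes). Endothelial and mural markers summed to 319 to 350.2 CPM in 5xFAD/Cd5l tg/wt, 186 to 225 CPM in 5xFAD and 294 to 318 CPM in wild-type libraries. In the first comparison all 8 were above 0 and 6 of 8 passed the threshold (5.34% of tested genes higher). In the second all 8 were below 0 and 4 of 8 passed (2.44% lower). Long noncoding RNAs took 1.39% to 1.65% of counts in 5xFAD/Cd5l tg/wt, 1.15% to 1.20% in 5xFAD and 1.35% to 1.53% in wild-type libraries. Within genotypes the measures followed Psme4 only in part. In 5xFAD/Cd5l tg/wt, library 1 was lowest for Psme4 and for each of these measures. Among wild-type libraries, library 3 was highest for Psme4 (64.7 CPM). It was lowest there for nuclear RNAs (2647 CPM), endothelial and mural markers (294 CPM) and long noncoding RNAs (1.35%). The part of these in the Psme4 difference was not tested. Psme4 has the longest deposited gene length of the 48 members, 8382 bases, and with length offsets its log2 fold change against 5xFAD was 0.42 (adjusted p = 0.0484).

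The other activators followed different orders. Psme1 and Psme2 form a ring that interferon induces. Psme1 had 38.0, 30.7 and 34.9 CPM in 5xFAD/Cd5l tg/wt libraries, 34.7, 31.9 and 36.9 CPM in 5xFAD and 26.7, 29.9 and 27.0 CPM in wild-type libraries. Both amyloid genotypes lay above the wild-type libraries and overlapped each other. The log2 fold change was 0.31 ± 0.10 against wild-type for each (adjusted p = 0.192 for 5xFAD/Cd5l tg/wt and 0.127 for 5xFAD), and 0.00 ± 0.10 between them. Psme2 had 13.3, 11.1 and 16.0 CPM in 5xFAD/Cd5l tg/wt libraries, 12.7, 9.76 and 12.05 CPM in 5xFAD and 13.7, 8.09 and 7.74 CPM in wild-type libraries. Its genotypes overlapped, with wild-type library 1 apart from the other 2 (0.45 ± 0.22 between Cd5l transgenic and wild-type brains, adjusted p = 0.436). Psme3, which forms a nuclear activator ring of its own, had -0.08 ± 0.08 against 5xFAD, and the inhibitor Psmf1 had -0.03 ± 0.09. Of the genes that the rule takes by symbol alone, Psme3ip1, a partner of Psme3, had -0.19 ± 0.08 against 5xFAD (adjusted p = 0.208). Psmc3ip had 2.86, 1.62 and 2.54 CPM in 5xFAD/Cd5l tg/wt libraries, 2.25, 2.08 and 2.94 CPM in 5xFAD and 2.09, 2.31 and 2.42 CPM in wild-type libraries, which overlapped in every comparison.

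The inducible catalytic subunits, which the rule leaves out, were set against the constitutive subunits that they replace. Per kb of length, Psmb8 reached 2.94% ± 0.429 of Psmb5 in 5xFAD/Cd5l tg/wt, 2.18% ± 0.582 in 5xFAD and 1.34% ± 0.0398 in wild-type libraries (SD, n = 3 each). Psmb9 reached 2.23% ± 0.607 of Psmb6 in 5xFAD/Cd5l tg/wt, 1.75% ± 0.386 in 5xFAD and 0.865% ± 0.144 in wild-type libraries. All libraries of both amyloid genotypes lay above the wild-type ones for these 2 ratios, and the amyloid genotypes overlapped. Psmb8 and Psmb9 were themselves low. Psmb8 had 5.39 to 8.01 CPM in 5xFAD/Cd5l tg/wt, 4.21 to 7.21 CPM in 5xFAD and 2.83 to 3.65 CPM in wild-type libraries. Psmb9 had 2.23 to 3.67, 2.08 to 3.31 and 1.05 to 1.31 CPM in the same order. Over the 9 libraries Psmb8 had 747 counts in all and Psmb9 325, at most 142 and 65 in 1 library. Psmb10 stood far higher, at 55.4% ± 2.25 of Psmb7 in 5xFAD/Cd5l tg/wt, 52.3% ± 1.71 in 5xFAD and 46.9% ± 6.32 in wild-type libraries. The log2 differences of the Psmb8 to Psmb5 ratio were 1.12 between 5xFAD/Cd5l tg/wt and wild-type and 0.67 for 5xFAD against wild-type, and those of the Psmb9 to Psmb6 ratio were 1.34 and 1.00. Each had p = 0.1 in an exact two-sided permutation test, the smallest that 3 against 3 libraries can give, and 0.18 after adjustment over 9 tests. The difference between 5xFAD/Cd5l tg/wt and 5xFAD was 0.46 for Psmb8 to Psmb5 (exact permutation p = 0.2, adjusted 0.225) and 0.34 for Psmb9 to Psmb6 (exact permutation p = 0.4, adjusted 0.4). For Psmb10 to Psmb7 the log2 difference against wild-type was 0.25 in 5xFAD/Cd5l tg/wt (exact permutation p = 0.1) and 0.17 in 5xFAD (exact permutation p = 0.2).

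**Figure D5:**
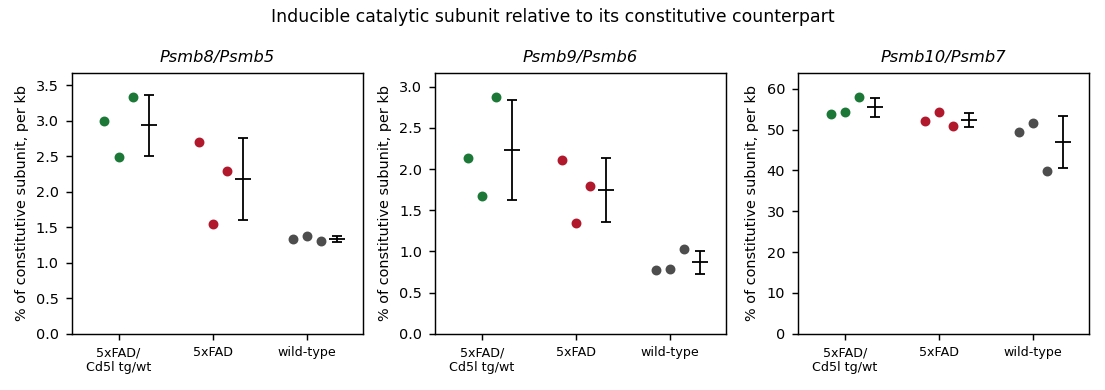
Level of Psmb8, Psmb9 and Psmb10 as a percentage of Psmb5, Psmb6 and Psmb7, per kb of gene length, in each library (points) with mean ± SD (n = 3), ordered 5xFAD/Cd5l tg/wt, 5xFAD and wild-type. For the first 2 pairs every library with amyloid transgenes lies above every wild-type library.

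The inducible genes were also tested by themselves. Psmb9 was higher in 5xFAD/Cd5l tg/wt than in wild-type brains (log2 fold change 1.31 ± 0.29, adjusted p = 0.0421) and in 5xFAD than in wild-type brains (1.15 ± 0.29, adjusted p = 0.0492). Psmb8 passed in 5xFAD/Cd5l tg/wt against wild-type (1.03 ± 0.23, adjusted p = 0.0476) and not in 5xFAD against wild-type (0.76 ± 0.23, adjusted p = 0.110). These calls lay at the threshold. For Psmb8 in 5xFAD/Cd5l tg/wt against wild-type the call was lost without any 1 wild-type library, and without library 3 of either amyloid genotype, at adjusted p up to 0.199, and for Psmb9 without any 1 wild-type or 5xFAD library or the third Cd5l transgenic one, at adjusted p up to 0.182. The call of Psmb9 in 5xFAD against wild-type was lost without the same libraries, at adjusted p up to 0.228. Without the 3 libraries together the adjusted p was 0.0466 for Psmb9 in 5xFAD against wild-type, and, with 5xFAD/Cd5l tg/wt as 1 library, 0.183 for Psmb8 and 0.155 for Psmb9 in 5xFAD/Cd5l tg/wt against wild-type. All 10 microglial markers had log2 fold changes above 0 in both amyloid genotypes against wild-type. Past the threshold were 9 of 10 in 5xFAD/Cd5l tg/wt (1.38% of tested genes higher) and 10 of 10 in 5xFAD brains (1.06%). These markers summed to 786 to 905 CPM in 5xFAD/Cd5l tg/wt, 655 to 861 CPM in 5xFAD and 335 to 371 CPM in wild-type libraries. Astrocyte markers summed to 5372 to 5659 CPM in 5xFAD/Cd5l tg/wt, 5345 to 5468 CPM in 5xFAD and 4298 to 4795 CPM in wild-type libraries. Past the threshold and higher was 1 of 8 in each amyloid genotype against wild-type. Below 0 were 2 of 8 in 5xFAD/Cd5l tg/wt and 1 of 8 in 5xFAD brains. The part of microglial or astrocyte markers in these ratios was not tested.

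Genes that work with the proteasome gave few calls. Of 10 other subunits and bound factors, among them Sem1, Adrm1, Usp14 and the maturation factor Pomp, none passed in any comparison, and their median log2 fold change for 5xFAD/Cd5l tg/wt against 5xFAD was -0.09. Ecpas, which tethers proteasomes to other structures, had the smallest p of that list, at 107.2, 129.8 and 120.5 CPM in 5xFAD/Cd5l tg/wt libraries, 103, 106.9 and 92.4 CPM in 5xFAD and 109.5, 121 and 118 CPM in wild-type libraries. Its 5xFAD libraries lay below all others (0.24 ± 0.09 for 5xFAD/Cd5l tg/wt against 5xFAD, adjusted p = 0.123). None of the 10 shuttle factors that carry ubiquitinated proteins, such as Ubqln1 and Sqstm1, passed in any comparison. Neither did any of the 11 genes of the Nfe2l1 pathway, which shares Ddi2 and Vcp with the shuttle list. Nfe2l1 itself had 370.4 ± 8.27 CPM in 5xFAD/Cd5l tg/wt libraries, 392.9 ± 16.97 CPM in 5xFAD and 372.6 ± 9.70 CPM in wild-type libraries. At an unadjusted p under 0.05 Ecpas passed in 5xFAD/Cd5l tg/wt against 5xFAD and in 5xFAD against wild-type, Nfe2l2, a stress-responsive relative of Nfe2l1, passed in both amyloid genotypes against wild-type, and no shuttle factor passed. DESeq2 called none of the 3 lists' genes in any comparison.

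Of 6 ubiquitin genes and activating enzymes, 1 passed. The polyubiquitin gene Ubb had 711, 603 and 602 CPM in 5xFAD/Cd5l tg/wt libraries, 793, 759 and 826 CPM in 5xFAD and 729.7, 706 and 701 CPM in wild-type libraries. The 5xFAD libraries lay above all others. Ubb was lower in 5xFAD/Cd5l tg/wt than in 5xFAD brains (log2 fold change -0.31 ± 0.07, adjusted p = 0.0251), with 0.888% of tested genes called in that direction. The call was lost without any 1 of the 5xFAD libraries and without the second or the third 5xFAD/Cd5l tg/wt library, with an adjusted p of 0.0732 to 0.105, and in the fit that keeps 1 5xFAD/Cd5l tg/wt library, the highest of its genotype for Ubb, the log2 fold change was -0.17 (adjusted p = 0.128).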

How the data were processed

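The authors deposited 1 table of unnormalized read counts per gene for the 9 libraries, and per the file headers it also lists gene lengths and positions. The submitters' processing notes name the build GRCm39. Aligner, counter, strandedness and the treatment of multiply matching reads were not given in the sources used here. Low genes were removed by edgeR's filterByExpr, with a minimum count of 10 and a minimum total of 15, which left 17575 genes. Library sizes were scaled with TMM factors between 0.987 and 1.018. One quasi-likelihood model with 1 coefficient per genotype was fitted to the 9 libraries in edgeR 4.0.16 (R 4.3.3), and an adjusted p under 0.05 over all tested genes was the threshold. CPM used the scaled library sizes, and levels between genes were divided by the deposited gene length. Catalytic subunit ratios were compared by exact permutation over libraries. Motifs were searched in RefSeq promoters with Python 3.11.15, and figures drawn with matplotlib 3.10.9. Known changes placed in simulated counts were used to try the test, and all were larger than the fold changes called among the members. Smaller changes were not tried. Libraries held 14575416 to 17865150 counts, and 3 counts corresponded to 0.168 to 0.207 CPM per library, counting error only. Libraries are labelled as separate mice.

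Values in every library are given for the catalytic subunits, the members past the threshold or with the 3 smallest p in a comparison, Psme1, Psme2, and the members highest and lowest per length. Psma3, Psmd10, the Psma6 promoter and members given by fold change alone were chosen after their values were seen. The members and lists were chosen with earlier results of these data known. Of the listed factors, Paaf1 had no matching symbol. Alternatives were 3 other scalings (RLE, upper-quartile, total-count), other filters, DESeq2 1.42.0, limma-voom (limma 3.58.1), a fit of only the 6 libraries in a comparison, a replicate block, offsets for gene length, other thresholds, and leaving out libraries. The checks of the count at an unadjusted p, of the summed level and of Ubb, Psmb8 and Psmb9 were added after seeing the data.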

Additional observations from a re-analysis of the deposited data

How the results depend on the processing

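The median log2 fold change of the members kept its sign under all alternatives in every comparison, at 0.01 to 0.07 for 5xFAD against wild-type, -0.13 to -0.08 for 5xFAD/Cd5l tg/wt against 5xFAD and -0.09 to -0.04 for Cd5l transgenic against wild-type brains, where the count of members called was 0 throughout. That for 5xFAD against wild-type was 1 (Psme4, 2.17% of members) instead of 0 without a filter (4.32% of tested genes called), with DESeq2 (4.81%), with the 6 libraries compared (4.35%), at an adjusted p under 0.10 (5.45%) and without 5xFAD/Cd5l tg/wt libraries 2 and 3 and wild-type library 3 together (6.2%), and 0 to 1 when single libraries were left out (1.14% to 4.74%). That for 5xFAD/Cd5l tg/wt against 5xFAD was 1 (Psme4) instead of 2 with the 6 libraries compared (5.97% of tested genes), the replicate block (4.76%) and length offsets (5.46%), and 1 (Psma6) without the 3 libraries (3.39%), where 5xFAD/Cd5l tg/wt is 1 library, the lowest of its genotype for Psma6. It was 4 at an adjusted p under 0.10 (11%), 0 under 0.01 (1.93%), and 0 to 2 without single libraries (1.55% to 11.5%). Its number of members lower at an unadjusted p was 3 to 17 without single libraries (4.78% to 11.3% of tested genes). The cause of these shifts was not tested.

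Whether replicate numbers mark pairs or batches is not labelled. Deviations from the genotype means correlated at -0.100 to 0.154 between libraries with the same number and at -0.160 to 0.146 between libraries with different numbers. Over the members alone these ranges were -0.543 to 0.464 and -0.532 to 0.461. The ranges overlap widely, and with 3 libraries per genotype they cannot settle whether the numbers pair the libraries. The calls lost under the replicate block were Psma6 in 5xFAD/Cd5l tg/wt against 5xFAD, at an adjusted p of 0.0787 in edgeR's quasi-likelihood test, and those of the inducible subunits, at 0.0675 for Psmb9 in 5xFAD against wild-type, 0.0694 for Psmb8 and 0.0662 for Psmb9 in 5xFAD/Cd5l tg/wt against wild-type. Psmb9 in 5xFAD against wild-type also missed the threshold with upper-quartile (adjusted p = 0.0510, edgeR's quasi-likelihood test) and total-count scaling (0.0516), length offsets (0.0501) and limma-voom (0.0867). In 5xFAD/Cd5l tg/wt against wild-type, Psmb8 missed it with upper-quartile (0.0548) and total-count scaling (0.0552), limma-voom (0.0696) and the 6 libraries compared (0.0747), and Psmb9 with limma-voom (0.0722) and the 6 libraries compared (0.110).

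Signs turned for 8 of the genes named, none of them called in the comparison concerned. Psmc5 in 5xFAD against wild-type was 0.0074 with RLE, 0.013 with upper-quartile scaling, 0.0043 with no filter, 0.013 with a 1 CPM filter, 0.0075 with DESeq2, 0.0040 with 6 libraries, 0.015 without the 3 libraries and -0.049 to 0.075 without single ones. Psme1 in 5xFAD/Cd5l tg/wt against 5xFAD was -0.0098, -0.0074, -0.012, -0.014, -0.0095 and -0.0048 under the same first 6 settings, -0.00024 with the replicate block and -0.074 to 0.077 without single libraries. Psmc3ip in that comparison was 0.00016 with length offsets, 0.23 without the 3 libraries and -0.21 to 0.16 without single ones, and Psmb9 was -0.046 to 0.33 without single ones. Between Cd5l transgenic and wild-type brains, Psme4 was -0.13 and Psmg1 -0.078 without the 3 libraries, and without single ones Psme4 was -0.026 to 0.15, Psmb6 -0.13 to 0.012 and Psmc3ip -0.12 to 0.25. In 5xFAD against wild-type without single libraries, Psmc2 was -0.015 to 0.042 and Psmc3ip -0.071 to 0.19.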
